A study of Arabidopsis thaliana with 24 samples.

Results

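The comparison described here set seedlings overexpressing the long noncoding RNA ELENA1 (OX) against wild type (WT) after 6 h of elf18. It used 6 of the 24 RNA sequencing libraries of the series, 3 for OX and 3 for WT, chosen by genotype and time alone and taken over all loci of the count table. Both groups were Arabidopsis thaliana plants of ecotype Col-0, grown as seedlings for 2 weeks on solid Murashige and Skoog medium and then moved to liquid medium with 5 µM elf18 for 6 h. The other 18 libraries were OX and WT at 0 h, without the peptide, and at 1 h and 12 h of elf18, with 3 biological replicates each; they shared the estimate of spread and served for comparison over time. The seedlings at 0 h had no peptide, and no group was moved to liquid medium without it. The labels name neither the promoter of the transgene nor the number of OX lines.

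The peptide elf18 is the amino-terminal stretch of bacterial elongation factor Tu, which plants sense at the cell surface through the receptor kinase EFR. Perception sets off calcium influx, an oxidative burst and kinase cascades within minutes, and later the synthesis of salicylic acid, the hormone that turns on pathogenesis-related genes such as PR1. ELENA1 is known from the study of this series as an elf18-induced RNA that associates with the Mediator complex, the bridge between transcription factors and RNA polymerase, and the comparison asks which immune genes its overexpression changes.

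Total counts of the 6 libraries ran from 18803963 to 56672924, and replicate 3 was the shallowest in both genotypes. The median SD of log2 CPM, the count scaled to library size, between replicates was 0.159 in OX and 0.108 in WT. One library, OX replicate 1, stood apart: its counts fell with transcript length, by 0.154 log2 units per doubling of length relative to its group, where the other 5 libraries lay between -0.052 and 0.099. ELENA1 (AT4G16355) was not analysed here, so the overexpression itself was not checked in these libraries. Its 3 neighbours on each side on chromosome 4 were all tested and none was called, with log2 fold changes between -0.23 and 0.02 and a smallest adjusted p of 0.32. Markers of the plant's parts were at similar summed levels. The 17 root markers summed to 236.7 to 263.6 CPM in OX and 252.3 to 272.9 CPM in WT, and the 9 green shoot markers to 10860 to 11100 CPM in OX and 9235 to 11320 CPM in WT. The 9 markers of the stomatal lineage and the 4 tested of 6 markers of shoot meristem and epidermis also overlapped between the genotypes. WUS and CLV3 were not among the loci of the count table, so their level is not known here. One root marker, AGP30, was called, and is described with the cell wall genes. In whole seedlings, fewer cells of a type and less RNA per cell cannot be told apart.

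Of 21015 genes tested, 319 differed between OX and WT at 6 h with an adjusted p under 0.05 (1.52%). In OX, 180 of them were higher (0.857% of genes tested) and 139 were lower (0.661%). The higher genes had the larger changes, with a median log2 fold change of 0.85, against -0.51 for the lower genes. At least a 2-fold change was reached by 84 genes, of which 71 were higher and 13 lower in OX. The OX and WT libraries did not overlap for 178 of the 180 higher and 138 of the 139 lower genes, where every OX library lay above every WT library for 8.38% and below for 9% of all genes tested. The authors' deposited FPKM values, 1 per group, went the same way for all 180 higher and all 139 lower genes; they come from the same libraries. Single libraries weighed on the count: 73 genes, 53 higher and 20 lower, were called in each of the 6 fits that left out 1 library of 6 h. The count was 134, 232 and 370 without OX replicates 1, 2 and 3, and 103, 144 and 192 without WT replicates 1, 2 and 3. Without OX replicate 1 and the 2 libraries of other times with a similar trend over length, it was 147, of which 88 were higher and 59 lower.

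**Figure D1:**
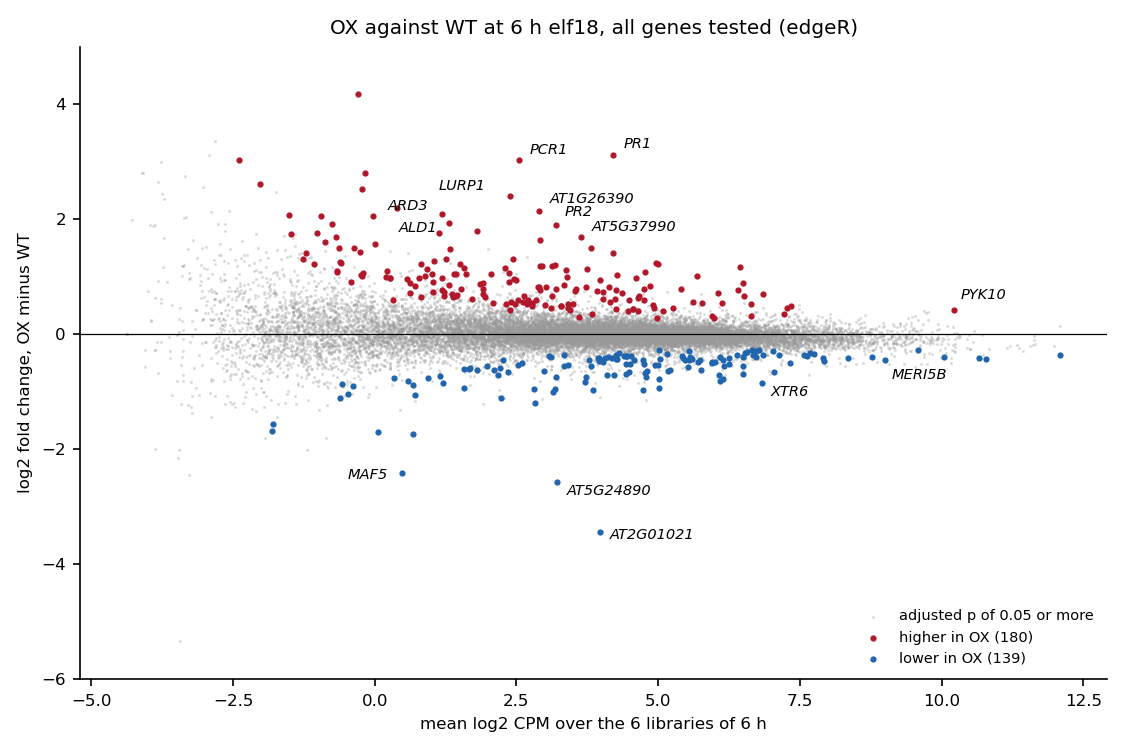
Log2 fold change of OX minus WT at 6 h (vertical axis) against the mean log2 CPM of the 6 libraries (horizontal axis) for the 21015 genes tested. Red points are the 180 genes higher in OX, blue points the 139 lower, grey points genes that were not called; the blue points lie nearer to 0 and more to the right than the red ones.

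Salicylic acid output genes held the largest increases among the genes ranked here. PR1, which codes for a secreted antimicrobial protein and is the standard marker of salicylic acid signalling, stood at 70.7, 42.6 and 50 CPM in the 3 OX libraries and at 5.83, 5.71 and 7.66 CPM in the 3 WT libraries. Every OX library was several times above every WT library. The fold change was 8.72, or 3.12 ± 0.31 on the log2 scale (SE, n = 3 each, adjusted p = 2.4e-06). PCR1 (PLANT CADMIUM RESISTANCE 1), a membrane protein, had 12.9, 17.3 and 18.9 CPM in OX and 1.83, 1.91 and 2.40 CPM in WT, a log2 fold change of 3.03 ± 0.34 (adjusted p = 1.9e-05). LURP1, needed in Arabidopsis for full defence against the downy mildew pathogen, had 13.3, 12.6 and 10.5 CPM in OX and 1.65, 3.06 and 2.07 CPM in WT. Its log2 fold change was 2.40 ± 0.30 (adjusted p = 4.6e-05). For all 3 genes the lowest OX library lay well above the highest WT library, but the ranking rule admits only genes without overlap.

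The classical PR genes did not move together. PR2, a beta-1,3-glucanase, had 18.5, 18 and 17.1 CPM in OX and 5.14, 2.54 and 7.57 CPM in WT, a log2 fold change of 1.91 ± 0.36 (adjusted p = 0.0059). The OX values were close together and the WT values spread; without WT replicate 2 the adjusted p was 0.053. PR5, a thaumatin-like protein, had 9.53, 13.5 and 12.8 CPM in OX and 12.7, 10.8 and 10.1 CPM in WT, so that the groups overlapped (0.07 ± 0.16, adjusted p = 0.90). On a scale that allows genes to be compared, the authors' deposited FPKM of PR1, PR2 and PR5 was 90.0, 16.1 and 14.6 in OX and 10.5, 4.6 and 13.8 in WT: PR5 led PR1 in WT, and PR1 led by far in OX. BG3, the glucanase gene next to PR2, was also higher, at 16.4, 11.5 and 18 CPM in OX and 6.77, 6.47 and 8.09 CPM in WT (1.12 ± 0.24, adjusted p = 0.017). Its call was lost without OX replicate 1, WT replicate 1 or WT replicate 2 (adjusted p = 0.075, 0.098 and 0.085).

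Of 19 pathogenesis-related and salicylic acid output genes listed, 9 were higher in OX and 0 lower, beside 0.857% and 0.661% of all genes tested. Among the 19, 18 had a positive log2 fold change. The median log2 fold change of the 19 was 0.71, beside -0.003 over all genes tested. Besides those above, ARD3, an acireductone dioxygenase of the methionine cycle, rose by 2.09 ± 0.28 (adjusted p = 0.00014). PNP-A, a secreted natriuretic peptide-like protein, rose by 1.23 ± 0.17 (adjusted p = 0.00021). ACD6, an ankyrin-repeat membrane protein that promotes salicylic acid accumulation, had 76.0, 85.1 and 60.3 CPM in OX and 34.4, 33.5 and 41.9 CPM in WT (1.02 ± 0.16, adjusted p = 0.00059). Its related neighbour AT4G14390 was higher as well (1.16 ± 0.14, adjusted p = 4.6e-05). SAG13, a senescence-associated dehydrogenase, and PCC1, a small pathogen-responsive protein, were called with log2 fold changes of 1.2 ± 0.23 and 0.94 ± 0.20 (adjusted p = 0.0081 and 0.019). SAG13 lost its call without WT replicate 1 (adjusted p = 0.086), and PCC1 lost its call without OX replicate 1, WT replicate 1 or WT replicate 2 (adjusted p = 0.097, 0.14 and 0.068).

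**Figure D2:**
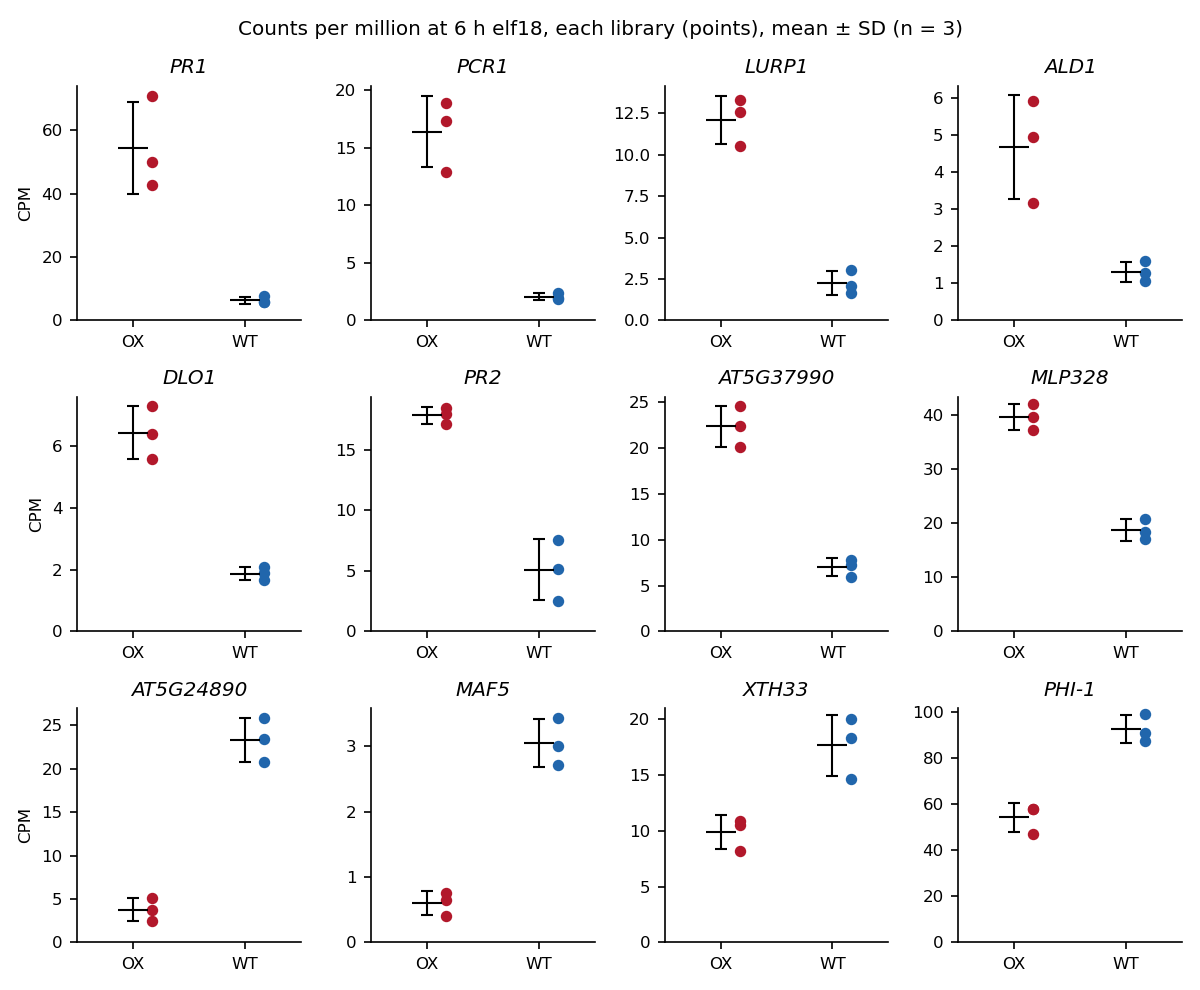
CPM of 12 genes at 6 h elf18 in OX (red, left) and WT (blue, right), with each library as a point and the mean ± SD of 3 libraries as a bar. In the first 8 panels every OX library is above every WT library, and in the last 4 panels (AT5G24890, MAF5, XTH33 and PHI-1) every OX library is below.

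Genes of salicylic acid synthesis, signalling and turnover held 3 calls, all higher, where 0.857% of all genes tested were higher. Among 20 genes of its synthesis and signalling, 1 was higher and 0 lower, with a median log2 fold change of 0.03. The one called was EDS1B, a lipase-like regulator upstream of salicylic acid, at 7.22, 7.08 and 7.81 CPM in OX and 4.76, 4.83 and 5.50 CPM in WT (0.56 ± 0.12, adjusted p = 0.015). It is a close copy of EDS1, so reads may have been shared, and its call was lost without WT replicate 1 or WT replicate 2 (adjusted p = 0.093 and 0.068). Of 7 turnover and conjugation genes, the pair of salicylic acid hydroxylases was higher. DLO1, which hydroxylates salicylic acid, had 7.30, 5.58 and 6.40 CPM in OX and 2.07, 1.66 and 1.88 CPM in WT (1.79 ± 0.17, adjusted p = 2.3e-06). DMR6, its relative with the same kind of activity, had 38.2, 37.1 and 40.5 CPM in OX and 20.1, 21.3 and 23.3 CPM in WT (0.84 ± 0.12, adjusted p = 0.00018). Neither gene had overlapping groups. Of 6 genes of pipecolic acid and systemic acquired resistance, 1 was called: ALD1, the aminotransferase that starts pipecolic acid synthesis, at 4.93, 5.91 and 3.17 CPM in OX and 1.28, 1.05 and 1.60 CPM in WT (1.93 ± 0.26, adjusted p = 0.00014).

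The perception side of the pathway was not called, where 1.52% of all genes tested were. None of 30 surface pattern receptors and early signalling genes passed, with a median log2 fold change of -0.08. The elf18 receptor gene EFR was at 39.0, 38.5 and 41.8 CPM in OX and 49.5, 45.3 and 46.6 CPM in WT (-0.25 ± 0.08, adjusted p = 0.14), and BIK1, the kinase that relays its signal, was at 63.4, 62.1 and 64.4 CPM in OX and 72.8, 73.2 and 76.3 CPM in WT (-0.23 ± 0.08, adjusted p = 0.15). For both genes the OX libraries lay below the WT libraries without the test being passed. Among 28 early elf18 and flg22 marker genes, 25 had a negative log2 fold change and the median was -0.28, but 1 was called. That was PHI-1, a phosphate-responsive cell wall protein, at 57.9, 47.1 and 58.2 CPM in OX and 99.3, 87.7 and 91.2 CPM in WT (-0.77 ± 0.14, adjusted p = 0.0052).

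Defence receptors and enzymes contributed single genes, where 0.857% of all genes tested were higher. Of 31 cysteine-rich receptor-like kinases, 2 were higher: CRK7 by 1.16 ± 0.24 (adjusted p = 0.013) and CRK37 by 1.07 ± 0.26 (adjusted p = 0.040). CRK7 lost its call without WT replicate 1 or WT replicate 2 (adjusted p = 0.057 each), and CRK37, at about 1 CPM, lost it without any 1 of the 6 libraries (adjusted p = 0.064 to 0.14). Of 24 intracellular immune receptors, the TIR-type gene CHS1 was higher (0.72 ± 0.16, adjusted p = 0.019), and lost its call without OX replicate 1, WT replicate 1 or WT replicate 2 (adjusted p = 0.14, 0.12 and 0.070). Of 7 berberine bridge enzyme-like genes, AT1G26390 was at 14.6, 15.5 and 16.5 CPM in OX and 3.31, 3.23 and 4.18 CPM in WT (2.15 ± 0.26, adjusted p = 3.3e-05). Of 20 camalexin and indole glucosinolate genes, 2 were higher. MYB122, a regulator of indole glucosinolates, rose by 0.64 ± 0.14 (adjusted p = 0.019), and lost its call without WT replicate 1 or WT replicate 2 (adjusted p = 0.16 and 0.053). CYP71A12, a cytochrome P450 of the indole cyanogenic branch, rose by 0.53 ± 0.13 (adjusted p = 0.045). CYP71A12 kept its call without OX replicate 3 alone, and without any other library the adjusted p was 0.076 to 0.22. The largest changes of this list did not pass and went both ways: CYP82C2 at 1.17 and CYP71A13 at -1.13. With the 6 h libraries alone, 1 of the 20 genes was called higher and 1 lower. Close members may share reads.

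Besides the genes above, the 15 largest increases that held without each library and had a mean of at least 1 on the log2 CPM scale included a methyltransferase locus. AT5G37990, an S-adenosylmethionine-dependent methyltransferase gene, was at 22.4, 24.6 and 20.1 CPM in OX and 5.88, 7.82 and 7.29 CPM in WT (1.68 ± 0.11, adjusted p = 4.7e-09), the smallest adjusted p of the genes named here. AT1G77520, an O-methyltransferase, was at 9.64, 7.95 and 7.56 CPM in OX and 2.81, 3.39 and 4.37 CPM in WT (1.31 ± 0.16, adjusted p = 3.3e-05). ECS1, a small secreted protein linked in Arabidopsis to resistance against Xanthomonas, was at 32.9, 31.7 and 25.4 CPM in OX and 8.83, 12.0 and 13.6 CPM in WT (1.42 ± 0.17, adjusted p = 3.3e-05). AT2G43535, a knottin-like peptide gene, was at 63.7, 42.3 and 39.4 CPM in OX and 17.1, 21.3 and 23.7 CPM in WT (1.24 ± 0.15, adjusted p = 2.9e-05). The rule for these 15 also asks that OX and WT do not overlap, so their separation is no finding. The remaining 4 of the 15 are little-studied genes: AT1G19960 (1.65 ± 0.22), AT2G25510 (1.5 ± 0.18), AT5G22555 (1.49 ± 0.25) and AT3G61280 (1.31 ± 0.19), with adjusted p between 3.2e-05 and 0.0019.

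Among the 15 largest decreases chosen in the same way, AT5G24890, a gene of unknown function, stood alone. It had 3.76, 5.12 and 2.47 CPM in OX and 20.8, 25.8 and 23.4 CPM in WT (-2.58 ± 0.23, adjusted p = 6.8e-07). The other 14 had log2 fold changes between -0.97 and -0.45, so that the second largest decrease was AT2G27080, of the late embryogenesis abundant hydroxyproline-rich family, at 16.8, 19.8 and 20.7 CPM in OX and 39.6, 38.5 and 33.1 CPM in WT. Several of them act at the cell wall or surface. XTH33, a xyloglucan endotransglucosylase, which cuts and rejoins the glucan chains that tie cellulose together, had 10.9, 8.14 and 10.5 CPM in OX and 20, 14.6 and 18.3 CPM in WT (-0.84 ± 0.14, adjusted p = 0.0019). AT2G47550 and AT5G04960, of the pectin methylesterase and inhibitor superfamily by annotation, fell by 0.81 ± 0.15 and 0.63 ± 0.08 (adjusted p = 0.0044 and 3.3e-05). The galacturonosyltransferase-like gene GATL10 fell by 0.54 ± 0.10 (adjusted p = 0.0033) and the peroxidase gene AT3G49960 fell by 0.54 ± 0.09 (adjusted p = 0.0017).

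Lipid, phosphate and sugar genes made up others of the 15 decreases. ATGPAT3, a glycerol-3-phosphate acyltransferase, fell by 0.74 ± 0.10 (adjusted p = 0.00018), and ATPAP1, a phosphatidic acid phosphatase, fell by 0.51 ± 0.08 (adjusted p = 0.0015). The phosphate transporter gene PHT1;4, listed as ATPT2, was at 110, 89.8 and 118 CPM in OX and 161, 165 and 176 CPM in WT (-0.66 ± 0.10, adjusted p = 0.00054). The sugar transporter gene SWEET12, listed as MTN3, fell by 0.45 ± 0.09 (adjusted p = 0.0088). ATCXE13 (a carboxylesterase), AT4G29780 (a gene of unknown function) and AT4G36010 (a thaumatin-family gene) fell by 0.95 ± 0.12, 0.74 ± 0.12 and 0.52 ± 0.08, with adjusted p of 0.00011, 0.0010 and 0.00066.

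Phenylpropanoid genes, which make lignin monomers and soluble phenolics, held 4 members called lower and 0 called higher of 18 tested. Over all genes tested, 0.661% were lower and 0.857% higher. Of the 18, 17 had a negative log2 fold change, and the median was -0.36. PAL2, the entry enzyme phenylalanine ammonia-lyase, was at 167, 169 and 164 CPM in OX and 217, 223 and 204 CPM in WT (-0.37 ± 0.07, adjusted p = 0.012). Its call was lost without WT replicate 1 or WT replicate 2 (adjusted p = 0.075 and 0.068). HCT and CSE, of the shikimate ester branch, fell by 0.38 ± 0.08 and 0.36 ± 0.09 (adjusted p = 0.020 and 0.043), and the cinnamoyl-CoA reductase gene CCR2 fell by 0.67 ± 0.16 (adjusted p = 0.028). HCT kept its call without OX replicate 3 alone and CCR2 kept it without WT replicate 3 alone, with adjusted p of 0.053 to 0.15 for HCT and 0.052 to 0.16 for CCR2 without any other library; CSE lost it without any 1 library (adjusted p = 0.053 to 0.24). Without the 3 libraries that stand apart over length, 1 of the 18 was called and the median was -0.32. Of 15 flavonoid genes, the flavonol synthase gene FLS1 was called lower (-0.51 ± 0.13, adjusted p = 0.045), and lost its call without any 1 library (adjusted p = 0.056 to 0.25).

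The remaining lists gave 1 or 2 calls or none, where 1.52% of all genes tested were called. KIN1, a small hydrophilic cold- and abscisic acid-responsive protein, was at 13.8, 12.6 and 12.6 CPM in OX and 4.59, 5.86 and 7 CPM in WT (1.2 ± 0.17, adjusted p = 0.00021), and its neighbour KIN2 rose by 0.80 ± 0.16 (adjusted p = 0.0092). They were the 2 called of 22 abscisic acid, cold and osmotic genes; KIN2 lost its call without OX replicate 1 or WT replicate 1 (adjusted p = 0.077 and 0.081). Of 28 jasmonate genes, the lipoxygenase gene LOX4 was lower (-0.38 ± 0.09, adjusted p = 0.021). Of 23 ethylene genes, ACS11, which makes the ethylene precursor, was at 9.75, 9.99 and 11.6 CPM in OX and 25.5, 16.8 and 18.8 CPM in WT (-0.98 ± 0.20, adjusted p = 0.015). LOX4 lost its call without OX replicates 1 or 3 or WT replicates 1 or 2 (adjusted p = 0.11, 0.091, 0.19 and 0.096), and ACS11 lost it without OX replicates 1 or 2 or WT replicate 1 (adjusted p = 0.090, 0.054 and 0.15). Of 15 low-oxygen genes, PCO2, a plant cysteine oxidase, was higher at about 1 CPM (1.00 ± 0.25, adjusted p = 0.042), and without any library but OX replicate 3 the adjusted p was 0.055 to 0.26. Of 9 nitrate genes, the nitrate reductase gene NIA2 was at 837, 989 and 948 CPM in OX and 1210, 1160 and 1280 CPM in WT (-0.40 ± 0.09, adjusted p = 0.021). NIA2 lost its call without OX replicate 1, WT replicate 1 or WT replicate 3 (adjusted p = 0.15, 0.098 and 0.097). The largest change of this list, NRT2.6 at 1.14, did not pass. With DESeq2, 1 of the 9 was higher and 2 were lower, and with the length correction 0 and 2. With the replicate block 1 was higher and 1 lower, and with the 6 h libraries alone 1 and 0.

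No member passed in the lists of photosystem, light-harvesting and carbon fixation genes (40 tested), Mediator subunits (23), clock genes (20), iron deficiency (18), heat shock (17), endoplasmic reticulum folding (17), aliphatic glucosinolates (16), dark and sugar starvation (14), expansins (10) and mitotic cell cycle (10). The photosynthesis list had a positive log2 fold change in 38 of its 40 members, with a median of 0.20, and the heat shock list a negative one in 16 of 17, with a median of -0.38. Of the members with the smallest adjusted p, PSAH2 of photosystem I was at 326, 284 and 277 CPM in OX and 202, 224 and 267 CPM in WT (adjusted p = 0.15), and HSP22 at 0.513, 0.436 and 0.605 CPM in OX and 0.925, 0.880 and 1.18 CPM in WT (adjusted p = 0.092). MED19A, the Mediator subunit linked to ELENA1, was at 26.6, 29.9 and 26.3 CPM in OX and 24.3, 25.2 and 24.1 CPM in WT (0.17 ± 0.06, adjusted p = 0.17). EXPA8 (0.68), CYCB1;2 (-0.26), FMOGS-OX1 (-0.37), FIT (-0.32), BGAL4 (0.32), BIP3 (-0.49) and PIF4 (0.36) are the members of lowest adjusted p in the expansin, cell cycle, aliphatic glucosinolate, iron, starvation, folding and clock lists, given as log2 fold changes that did not pass.

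**Figure D3:**
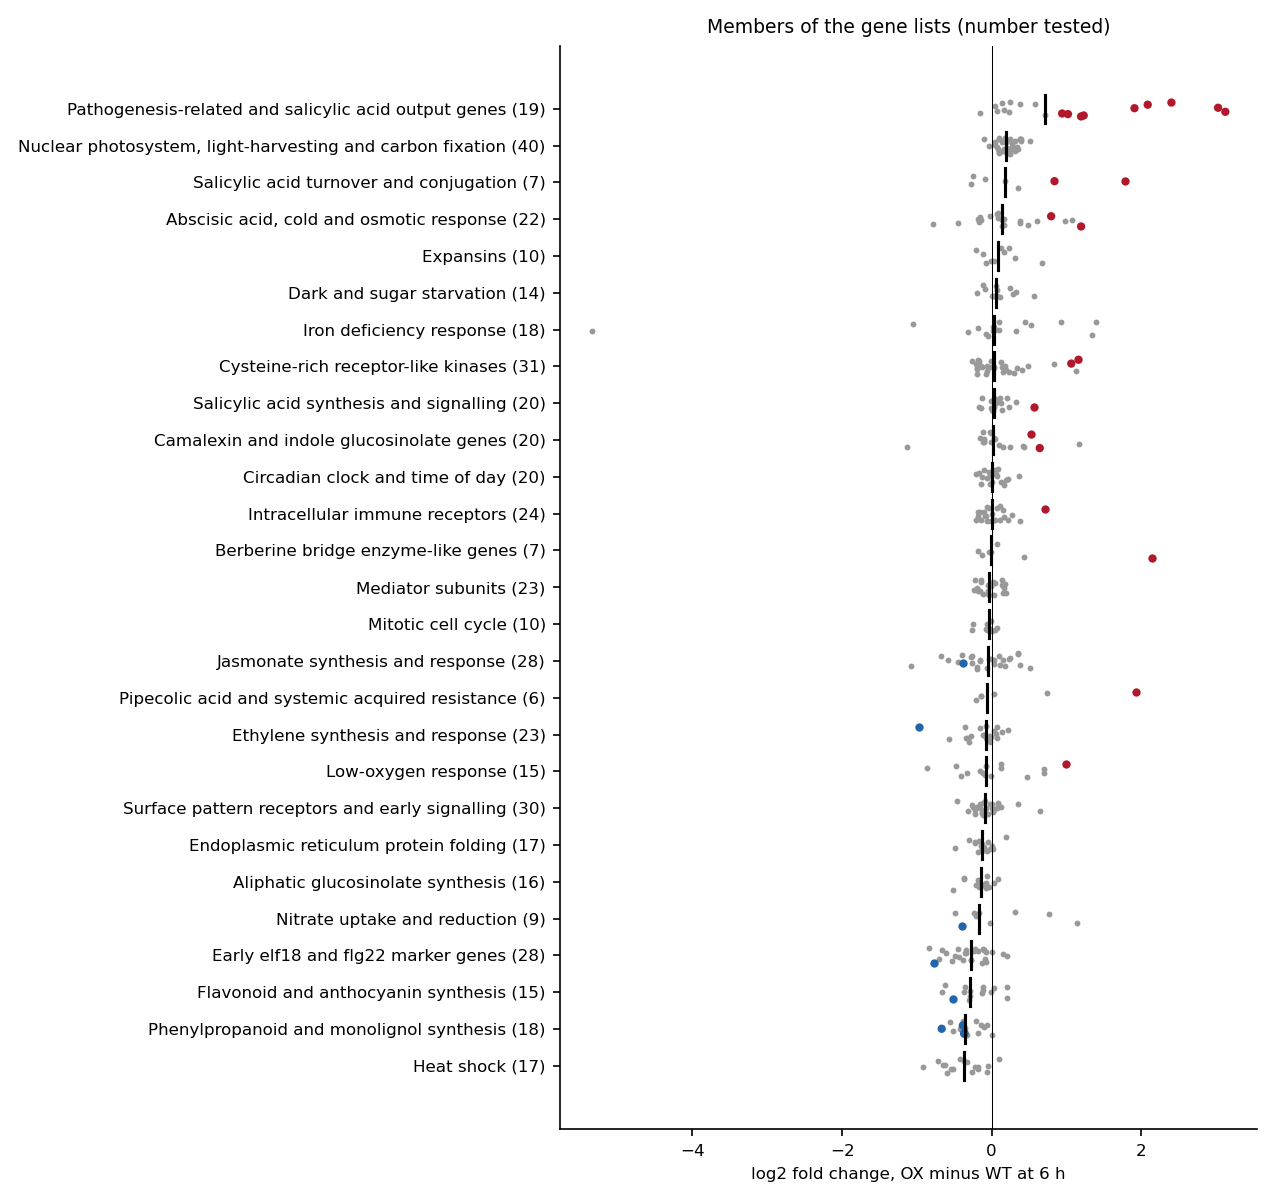
Log2 fold change of OX minus WT at 6 h (horizontal axis) for each member of 27 gene lists, with the number tested in brackets and the list's median as a black bar. Red members were called higher and blue members lower; salicylic acid output genes hold 9 red members with a median of 0.71, and the phenylpropanoid list holds 4 blue ones with a median of -0.36. The grey point near -5 is CYP82C4 of the iron list, which had no count in any OX library and 0.074 to 0.188 CPM in WT.

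Protein families were then read from the annotation words of the authors' table; these families were chosen after the values were seen, so their counts describe and do not test. Of 28 xyloglucan endotransglucosylase/hydrolases tested, 8 were lower in OX and 1 was higher, with 32.1% called beside 1.52% of all genes. XTR6 (XTH23) was at 75.8, 79.1 and 103 CPM in OX and 174, 142 and 147 CPM in WT (-0.85 ± 0.18, adjusted p = 0.017). MERI5B (XTH24), the most abundant of those named, was at 439, 432 and 450 CPM in OX and 651, 560 and 597 CPM in WT (-0.45 ± 0.10, adjusted p = 0.024). The neighbours XTH12 and XTH13 fell by 0.65 ± 0.13 and 0.56 ± 0.12 (adjusted p = 0.0088 and 0.020), and XTR9, next to XTR6, fell by 0.39 ± 0.09 (adjusted p = 0.020). The exception, XTH10, lies next to PR1 and was at 3.59, 3.27 and 2.82 CPM in OX and 1.96, 1.49 and 2.12 CPM in WT (0.86 ± 0.16, adjusted p = 0.0080).

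Of the 9 xyloglucan genes called, XTH33 was called without each library. XTR6 lost its call without OX replicates 1 or 2 or WT replicate 1 (adjusted p = 0.10, 0.062 and 0.12), and MERI5B without OX replicates 1 or 2 or WT replicates 1 or 3 (0.10, 0.072, 0.17 and 0.064). XTH12 lost it without OX replicate 2 or WT replicate 3 (adjusted p = 0.054 and 0.051), and XTH13 without OX replicate 2 or any 1 WT replicate (0.099, 0.053, 0.084 and 0.077). XTR9 lost it without OX replicates 1 or 2 or WT replicates 2 or 3 (adjusted p = 0.051, 0.099, 0.057 and 0.13), and XTH10 without OX replicate 1 or WT replicate 2 (0.070 and 0.073). Without the 3 libraries that stand apart over length, 6 of the 28 were lower and 0 higher, and their median was -0.43, against -0.10 with all libraries. Close members of this family share sequence, so single values are uncertain.

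Other wall families held lower members as well. Over all genes tested, 0.661% were lower and 0.857% higher. Of 49 arabinogalactan and fasciclin-like arabinogalactan proteins, glycoproteins of the cell surface, 9 were lower and 0 higher, by 0.36 to 1.1 log2 units in size. AGP2 was at 50.6, 52.7 and 52.6 CPM in OX and 70.5, 74.1 and 76.0 CPM in WT (-0.50 ± 0.10, adjusted p = 0.012), and the root gene AGP30 at 2.36, 3.21 and 4.23 CPM in OX and 6.11, 6.64 and 7.62 CPM in WT (-1.1 ± 0.27, adjusted p = 0.042). AGP2 lost its call without OX replicate 1 (adjusted p = 0.064) and AGP30 without any library but OX replicate 3 (0.094 to 0.30). Without the 3 libraries that stand apart over length, 1 of the 49 was called. Of 3 UDP-glucose 6-dehydrogenases, which make the sugar precursor of pectin and hemicellulose, 2 were lower: UGD2 by 0.42 ± 0.09 and UDG4 by 0.35 ± 0.07 in size (adjusted p = 0.019 and 0.013). UGD2 lost its call without OX replicates 1 or 2 or WT replicates 1 or 3 (adjusted p = 0.10, 0.054, 0.12 and 0.063), and UDG4 without OX replicates 1 or 2 or WT replicates 1 or 2 (0.051, 0.060, 0.060 and 0.057). Of 23 expansins and expansin-like genes, 3 were lower, and of 62 class III peroxidases also 3. Of 52 pectin methylesterases and their inhibitors, 3 were higher and 2 were lower.

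Other families held members that were higher in OX, beside 0.857% of all genes tested. Of 8 MLP-like genes, relatives of the major latex proteins, 3 were higher, and of 32 mannose-binding and jacalin lectins 5 were higher, with 0 lower in either (with DESeq2, 6 lectins were higher and 1 lower). Of 131 genes annotated as methyltransferases 7 were higher, and of 42 nodulin MtN21-like (UMAMIT) transporters, which carry amino acids, 4 were higher, with 0 lower in either; with DESeq2, 8 methyltransferase genes were higher and 4 lower, and with the length correction 8 were higher and 2 lower. The transporter genes SIAR1 and UMAMIT14 rose by 0.55 ± 0.08 and 0.96 ± 0.17 (adjusted p = 0.00059 and 0.0030). Without the 3 libraries that stand apart over length, 2 of the MLP-like genes, 1 of the lectins, 4 of the methyltransferases and 2 of the transporters were called. SIAR1 was at 81.1, 82.0 and 90.2 CPM in OX and 59.9, 57.1 and 56.2 CPM in WT.

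**Figure D4:**
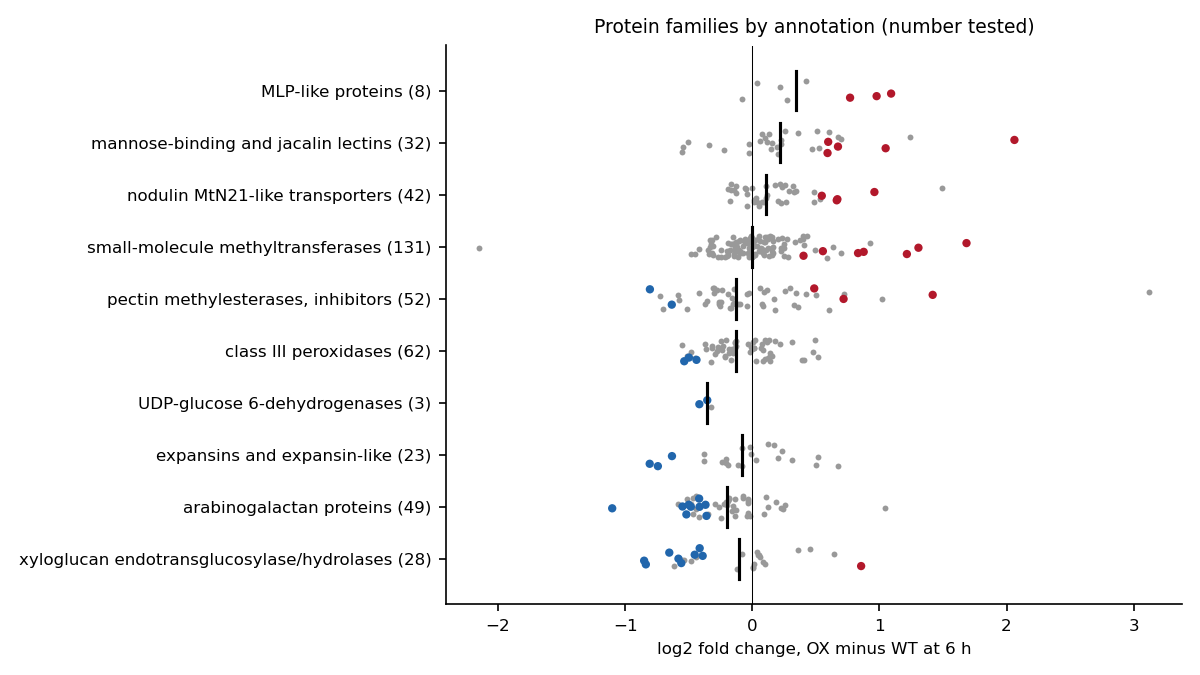
Log2 fold change of OX minus WT at 6 h (horizontal axis) for the members of 10 protein families named by annotation, with the number tested in brackets and the median as a black bar. Blue members were called lower and red members higher; xyloglucan endotransglucosylase/hydrolases hold 8 blue and 1 red member, arabinogalactan proteins 9 blue, and among methyltransferases and MLP-like proteins every called member is red.

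Some called genes lay side by side. Among 20951 pairs of tested neighbours, both genes were called in 21 pairs, which held 41 of the 319 genes (12.9%), and in 20 of the 21 both moved the same way. Most pairs are related copies by annotation whose reads the counting may have split, among them MLP328 with MLP329, AT1G77520 with AT1G77530, KIN1 with KIN2, and 3 receptor-like protein kinase-related genes in a row on chromosome 5. Unrelated neighbours included PR1 with XTH10 and DLO1 with the subtilase gene AT4G10510. The pair that moved opposite ways was ATMES9 (0.97) with sks15 (-0.63). How often neighbours share a direction over all pairs was not examined, so these counts describe and do not test. AT4G10510 was at 1.5, 1.8 and 1.51 CPM in OX and 0.759, 0.694 and 1.13 CPM in WT (0.99 ± 0.21, adjusted p = 0.015), and lost its call without OX replicate 2, WT replicate 1 or WT replicate 2 (adjusted p = 0.060, 0.11 and 0.11).

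One gene cluster split in the middle. MAF2 to MAF5 are MADS-box genes in a row on chromosome 5, relatives of the flowering repressor FLC; they were singled out after their values were seen. MAF5 had 0.403, 0.654 and 0.756 CPM in OX and 3.00, 2.71 and 3.43 CPM in WT, a log2 fold change of -2.41 ± 0.20 (adjusted p = 3.8e-07). MAF4 had 1.69, 1.17 and 0.554 CPM in OX and 2.20, 2.47 and 2.21 CPM in WT (-0.88 ± 0.22, adjusted p = 0.043). MAF3 (0.06 ± 0.09, adjusted p = 0.85) and MAF2, listed as AGL31 (-0.14 ± 0.10, adjusted p = 0.60), had overlapping groups. MAF5 and MAF4 were lower in OX at all 4 times, by 3.11 and 0.98 at 0 h, 2.42 and 1.11 at 1 h, and 2.12 and 0.97 at 12 h, so the difference was there without elf18. At 6 h MAF4 lost its call without OX replicates 2 or 3 or any 1 WT replicate (adjusted p = 0.12, 0.090, 0.15, 0.17 and 0.082), and the adjusted p of MAF5 was at most 1.1e-05.

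The OX to WT comparisons at the other times share no library with that at 6 h. At 0 h, 14.6% of genes were called, at 1 h 5.7% (2.79% higher and 2.9% lower) and at 12 h 1.65% (0.923% higher and 0.723% lower). Of the 180 genes higher at 6 h, 98 were also higher at 1 h (54.4%, and 16.7% of the 587 higher at 1 h), 62 at 0 h (34.4%, and 3.83% of 1619) and 59 at 12 h (32.8%, and 30.4% of 194). Of the 139 genes lower at 6 h, 20 were lower at 1 h (14.4%, and 3.28% of 610), 31 at 0 h (22.3%, and 2.13% of 1453) and 32 at 12 h (23%, and 21.1% of 152). At no other time were 43 of the higher genes (23.9%) and 67 of the lower genes (48.2%) called. All 4 times were shared by 18 higher genes, among them PR1, PR2, PCR1, PNP-A, DLO1, CRK37 and the aspartyl protease gene AT5G10760, and by 3 lower genes: AT5G24890, MAF4 and MAF5. AT5G24890 differed by -2.24 at 0 h, -2.68 at 1 h and -2.45 at 12 h. AT5G10760 rose by 1.19 ± 0.25 at 6 h (adjusted p = 0.017), and lost that call without OX replicate 2, WT replicate 1 or WT replicate 2 (adjusted p = 0.056, 0.12 and 0.070).

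Whether the difference at 6 h was itself different from that at another time was tested by interaction. It differed from that at 0 h for 1333 genes (6.34%; 3.43% more positive at 6 h and 2.92% more negative), from that at 1 h for 78 (0.371%) and from that at 12 h for 4 (0.019%). At an unadjusted p under 0.05 the last comparison had 2365 genes, and DESeq2 called 39. The 4 were LURP1, ECS1, AT1G19960 and PGAZAT, an abscission polygalacturonase, each with a larger difference at 6 h (adjusted p = 0.047 each). LURP1 was higher by 2.40 ± 0.30 at 6 h, against 0.20 ± 0.23 at 12 h, and PGAZAT by 2.82 ± 0.22 at 6 h, against 0.96 ± 0.30 at 12 h. This count was 0 without any 1 of 8 libraries: OX 6 h replicate 1, any of the 3 OX libraries of 12 h, WT 6 h replicates 1 and 2, and WT 12 h replicates 1 and 3. It was 17 without OX 6 h replicate 2. The comparison with 1 h gave 43 to 51 genes when 1 of these was left out: WT replicate 1 and OX replicate 2 of 1 h, each WT library of 6 h, and OX replicates 1 and 2 of 6 h; it gave 123 without OX 6 h replicate 3. The comparison with 0 h was moved by more than 1.5 times by 4 libraries, to 775 (WT replicate 1 of 6 h left out), 869 (OX replicate 3 of 0 h), 747 (WT replicate 2 of 0 h) and 2244 (WT replicate 1 of 0 h).

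PR1 differed by 1.03 ± 0.28 at 0 h, 3.00 ± 0.31 at 1 h, 3.12 ± 0.31 at 6 h and 2.11 ± 0.28 at 12 h; the difference at 6 h exceeded that at 0 h by 2.09 ± 0.41 (adjusted p = 0.0027). ALD1 did likewise, with 0.29 at 0 h and 1.93 at 6 h (difference 1.64 ± 0.39, adjusted p = 0.013). DLO1 stood at 1.85 at 0 h, 1.75 at 1 h, 1.79 at 6 h and 0.58 at 12 h. For PR1 and DLO1 the difference at 6 h did not pass the test against that at 12 h. DMR6 was higher at 0 h (0.96) and at 6 h (0.84) but at 0.01 at 1 h, and the difference at 6 h exceeded that at 1 h by 0.83 ± 0.16 (adjusted p = 0.022).

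Some genes were called with opposite signs at 0 h and 6 h. Since the calls chose them, the interaction p-values given further below are no separate test of the turn. Of the 180 genes higher at 6 h, 28 were lower at 0 h (15.6%, beside 6.91% of all genes lower at 0 h). Of the 139 genes lower at 6 h, 8 were higher at 0 h (5.76%, beside 7.7% of all genes). The first set held neighbouring copies: AT5G37990 was at -0.67 at 0 h and 1.68 at 6 h, and AT5G38020, a methyltransferase close by, at -0.71 at 0 h and 0.83 ± 0.14 at 6 h. AT1G77520 and AT1G77530 were at -0.58 and -0.49 at 0 h and at 1.31 and 0.88 at 6 h. MLP328, MLP329 and MLP34 were at -0.57, -0.67 and -0.57 at 0 h and at 1.09 ± 0.10, 0.98 ± 0.23 and 0.77 ± 0.15 at 6 h. KIN1 was at -0.73 at 0 h and KIN2 at -0.48.

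MLP328 was at 39.6, 42.0 and 37.2 CPM in OX and 17, 18.3 and 20.8 CPM in WT at 6 h (adjusted p = 6.8e-07). PYK10, the beta-glucosidase of endoplasmic reticulum bodies, was at 1400, 1480 and 1280 CPM in OX and 966, 983 and 1130 CPM in WT (0.43 ± 0.10, adjusted p = 0.021), having been lower in OX at 0 h (-0.41, adjusted p = 0.0045). JAL22, a jacalin-related lectin, was at 32.1, 34.9 and 28.3 CPM in OX and 20, 18.9 and 21.2 CPM in WT (0.67 ± 0.08, adjusted p = 2.6e-05) and at -0.36 at 0 h. Genes that turned the other way included PHI-1 (0.53 at 0 h), MERI5B (0.74 at 0 h), the expansin-like gene ATEXLA1 (0.84 at 0 h and -0.63 ± 0.15 at 6 h) and FLA13 (0.31 at 0 h and -0.41 ± 0.10 at 6 h). At 6 h MLP34 lost its call without WT replicates 1 or 2 (adjusted p = 0.076 and 0.063), MLP329 without OX replicates 1 or 2 or WT replicates 1 or 2 (0.13, 0.061, 0.14 and 0.16), and PYK10 without the same 4 libraries (0.075, 0.073, 0.14 and 0.098). ATEXLA1 lost it without any library but OX replicate 3 (0.055 to 0.22), and FLA13 without OX replicates 1 or 2 or WT replicates 1 or 3 (0.20, 0.058, 0.17 and 0.094). The seedlings at 0 h stayed on the plates, so effects of elf18, of the move to liquid and of the hour of harvest cannot be told apart here.

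**Figure D5:**
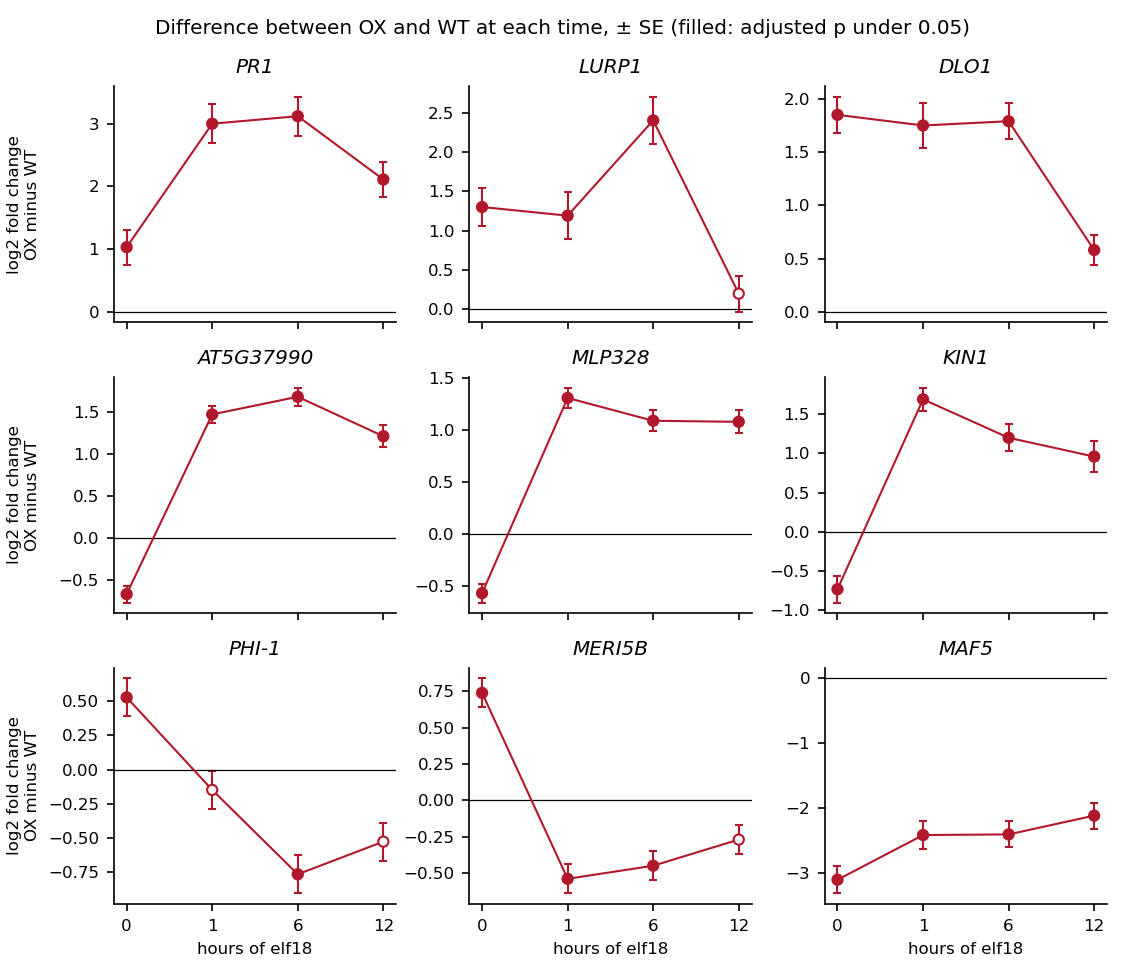
Log2 fold change of OX minus WT at 0, 1, 6 and 12 h of elf18 for 9 genes, with bars of ± SE; filled points have an adjusted p under 0.05. PR1, LURP1 and DLO1 are above 0 at 0 h already, AT5G37990, MLP328 and KIN1 are below 0 at 0 h and above 0 afterwards, PHI-1 and MERI5B are above 0 at 0 h and below 0 at 6 h, and MAF5 is below -2 at all 4 times.

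Promoter motifs were looked up as a description, in the window from 250 bases before to 50 bases after the start of each gene of the TAIR10.1 annotation, on either strand. The W-box letters TTGACC or TTGACT, bound by WRKY factors, were in 35% of the windows of the 180 higher genes, 43.5% of the 138 lower genes with a window and 33.2% of all genes tested. The letters TGACG, bound by TGA factors, the partners of the salicylic acid receptor NPR1, were in 27.8% of the windows of higher genes, 29% of those of lower genes and 4951 of the 20952 windows of all genes tested.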

How the data were processed

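Libraries were prepared with a stranded mRNA kit, with the 3 biological replicates of each condition in 1 sequencing pool and single reads, per the labels. The authors deposited read counts for each locus, in 1 column per library. FPKM values were deposited by the authors as 1 value per group, so they carry no spread. The submitters' processing notes name TopHat2 2.0.8, Cufflinks 2.1.1, Cuffdiff, DESeq2 and TAIR10; how reads were counted, and whether by strand, is not given in the sources used here, so close paralogs, overlapping genes and antisense partners may share reads.

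The counts of all 24 libraries entered 1 quasi-likelihood fit in edgeR 4.0.16 (R 4.3.3) with 8 group means, TMM scaling and filterByExpr at a minimum count of 10, which left 21015 of 21407 loci. Adjusted p-values are Benjamini-Hochberg over all genes tested, two-sided, and called means under 0.05; fold changes are log2 with SE from the fit, n = 3 libraries each. Levels are CPM. On simulated counts with known changes, the 6 h comparison of 20976 genes recovered 96 of 100 genes changed 2-fold and 77 of 100 changed 1.5-fold; 14 unchanged genes were also called, 7.49% of the calls made at an adjusted p under 0.05. The changed genes of the simulation were drawn from those with higher counts, and no length trend was simulated. The recovered shares therefore say nothing of low-count genes. The replicates are labelled as biological, and nothing says how cultures were shared.

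Genes are named by a rule. It takes the 15 largest changes in each direction among genes called with all libraries and without each 6 h library, with a mean log2 CPM of at least 1 and no overlap of OX and WT. It adds PR1, PR2 and PR5, the 3 loci on each side of ELENA1, and from each list up to 6 called members, or the lowest adjusted p where none was called. Genes named outside the rule are the protein families, the neighbours, the genes that turned sign, the MAF cluster and those under other observations; they were chosen after their values were seen. The members and lists were chosen with earlier results of these data known. Chromosomes, neighbours and promoter windows are from TAIR10.1, which 21330 of the loci matched; no coordinates or sequences are given, since the submitters name another build. Alternatives were DESeq2 1.42.0, RLE factors, no filter, the replicate number as a block, a length correction, the 6 h libraries alone, thinned counts, a test against a fold of 1.2, and leaving out each library. Leaving out the 3 libraries with the steepest fall over length, called those with a steep length trend, was chosen after seeing the data. Libraries that rose with length were kept.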

Additional observations from a re-analysis of the deposited data

Results flagged for a closer look

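For 53 genes named here, the OX to WT difference in log2 expression at 6 h differed from that at another time by edgeR's interaction test, in 56 results with adjusted p from 3e-09 to 0.048. Values are the difference at 6 h minus that at the other time. Over all genes tested, 6.34% differed from 0 h, 0.371% from 1 h and 0.019% from 12 h. Many of the genes were named after their values were seen, some of them for opposite calls at 0 h and 6 h. All 28 genes higher at 6 h and lower at 0 h passed against 0 h, as did all 8 of the reverse kind. For such genes the p-values are no separate test of the turn.

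Against 0 h, 26 results were positive (adjusted p = 3e-09 to 0.024). Defence and salicylic acid genes among them were PR1 (2.09), AT1G26390 (1.45), ALD1 (1.64), ECS1 (0.94), ACD6 (1.14), SAG13 (1.18), MYB122 (1.07) and the knottin-like gene AT2G43535 (1.07). Methyltransferase, lectin and MLP-like genes with their neighbours were AT5G37990 (2.35), AT5G38000 (1.40), AT5G38020 (1.54), AT1G77520 (1.89), AT1G77530 (1.37), IGMT5 (0.92), MLP328 (1.66), MLP329 (1.64), MLP34 (1.34), JAL22 (1.04) and PYK10 (0.85). The others were KIN1 (1.92), KIN2 (1.27), PGAZAT (2.72), AT3G28510 (2.13), AT4G13860 (1.08), SIAR1 (0.59) and IPS1 (2.47).

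Against 0 h, 21 results were negative (adjusted p = 4.4e-05 to 0.048). Cell wall and surface genes were XTH33 (-1.14), XTR6 (-1.11), MERI5B (-1.20), ATEXLA1 (-1.47), FLA13 (-0.73), UGD2 (-0.53), PHI-1 (-1.30), AT2G47550 (-0.74), AT5G04960 (-0.42) and AT2G27080 (-0.94). Phenylpropanoid genes were PAL2 (-0.47), HCT (-0.41) and CSE (-0.57). The others were ACS11 (-1.63), NIA2 (-0.46), PCO2 (-1.01), MTN3 (-0.66), ATCXE13 (-0.70), AtRABA1f (-0.72), DIC3 (-2.76) and AT2G01021 (-3.64).

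Against 1 h, ATGPAT3 (-0.81), ATPT2 (-0.78), AT5G04960 (-0.53) and AT4G36010 (-0.72) were negative (adjusted p = 0.0037 to 0.030) and DMR6 (0.83) was positive (adjusted p = 0.022). Against 12 h, LURP1 (2.20), AT1G19960 (1.69), ECS1 (1.39) and PGAZAT (1.85) were positive (adjusted p = 0.047).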

How the results depend on the processing

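Of the 92 called genes named here, 38 passed under every alternative, and none changed direction. The 319 genes called at 6 h became 574 with DESeq2 (314 of the 319 among them), 623 with a length correction and the replicate block, 153 with the 6 h libraries alone, 76 against a fold of 1.2 and 147 without the 3 libraries with a steep length trend; leaving out 1 library gave 103 to 370. The share of calls that were higher, 56.4%, was 81.6% against a fold of 1.2, and 70.8% without WT replicate 3. The 1333 genes whose difference at 6 h differed from that at 0 h ranged from 747 to 2244 without 1 library. The 78 against 1 h became 226 with DESeq2, 131 with the replicate block, 141 with a length correction, 23 without the 3 libraries with a steep length trend, and 43 to 123 without 1 library. The 4 against 12 h became 39 with DESeq2, 1 with a length correction, 0 without the 3 libraries, and 0 to 17 without 1 library. Of the phenylpropanoid list, 10 genes were lower with DESeq2 and 2 with the 6 h libraries alone, against 4; of the early marker list, 4 and 6, against 1. The causes were not tested. Same-numbered OX and WT libraries of 6 h did not deviate together (correlations of -0.34, 0.01 and -0.04). These 3 values cannot show whether the numbers mark a shared batch, which was not tested. Replicate 3 was the shallowest library in every group of the series. With the replicate block 428 genes were called at 6 h, 1625 against 0 h and 6 against 12 h. Log2 fold changes near 0 changed sign for PR5 (-0.0323 to 0.2327 without 1 library), and for the ELENA1 neighbours AT4G16330 (0.0024 thinned, 0.0004 without the 3 libraries, -0.2347 to 0.0062 without 1 library), CBL6 (-0.0364 with a length correction, -0.0384 with the block added, -0.0414 to 0.0936 without 1 library) and OPT3 (-0.1664 to 0.0473 without 1 library). A fold change of low-count genes rests on few reads in the shallow replicate 3.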

Other observations

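Genes below the level asked of the ranked genes held large differences, named here after their values were seen. AT3G28510, a P-loop nucleoside triphosphatase gene by annotation, was at 2.29, 4 and 3.78 CPM in OX and 0.148, 0.237 and 0.094 CPM in WT (4.18 ± 0.41, adjusted p = 2.4e-06), and was called higher in OX at all 4 times. PGAZAT was at 2.18, 1.91 and 2.37 CPM in OX and 0.222, 0.322 and 0.423 CPM in WT (adjusted p = 1.5e-07). DIC3, a mitochondrial dicarboxylate carrier, was at 0.568, 0.708 and 1.61 CPM in OX and 3.44, 2.76 and 2.07 CPM in WT (-1.74 ± 0.28, adjusted p = 0.0010). Their groups did not overlap.

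IPS1, a noncoding RNA induced by phosphate starvation, was at 5.70, 3.87 and 2.32 CPM in OX and 0.888, 1.3 and 1.65 CPM in WT (1.77 ± 0.38, adjusted p = 0.018), while the phosphate transporter gene PHT1;4 was lower in OX. IPS1 lost its call without OX replicate 1, WT replicate 1 or WT replicate 2 (adjusted p = 0.16, 0.15 and 0.070).

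The groups overlapped for 3 of the genes called. AT2G01021 was at 3.79, 7.24 and 14.2 CPM in OX and 228, 16.9 and 9.40 CPM in WT (-3.45 ± 0.74, adjusted p = 0.018). WT replicate 1 stood far above every other library, and without it the adjusted p was 0.48; it was 0.13 and 0.067 without OX replicates 1 and 2. AT4G13860, an RNA-binding protein gene, was at 2.55, 2.15 and 1.51 CPM in OX and 0.981, 1.17 and 1.65 CPM in WT (adjusted p = 0.040, and 0.31, 0.079, 0.26 and 0.15 without OX replicates 1 or 2 or WT replicates 1 or 2). AT4G09770, a TRAF-like gene, was at 4.12, 2.53 and 1.81 CPM in OX and 1.04, 1.63 and 1.83 CPM in WT (adjusted p = 0.025, and 0.34, 0.20 and 0.062 without OX replicate 1, WT replicate 1 or WT replicate 2).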
